A study of Rattus norvegicus with 18 samples.

Results

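Integrins, selectins and leukocyte adhesion molecules were examined as 1 group of genes in the lungs of rats that had received a multiwalled carbon nanotube (MWCNT) or its vehicle. A list of 33 gene symbols was matched to the gene names in the deposited tables, and 31 of the 33 symbols had a row among the 22081 genes of each table. The 31 genes comprised 24 integrin subunit genes and 7 genes of selectins, a selectin ligand and immunoglobulin-type adhesion molecules. *Itgad* and *Itgb5* were not analysed here. The animals were male F344/DuCrlCrlj rats, 9 weeks old at the first intratracheal instillation. MWCNT-treated rats received MWNT-7, a straight and rigid nanotube, at 0.5 mg/kg body weight every 4 weeks, and control rats received the same saline vehicle with 0.1% Tween 80 alone. Lungs were taken at week 26 (Year 0.5), at week 52 (Year 1) and after 2 years of instillations (Year 2), from 3 control and 3 MWCNT-treated rats each time, so that the 18 rats formed 6 groups and no rat was sampled at more than 1 time point. RNA came from pieces of the accessory lobe, free of grossly visible tumor nodules, and so from every cell type that this tissue held. In such whole tissue, a change in the number of cells of a type and a change in the RNA made per cell cannot be told apart.

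Integrins are cell-surface receptors built from an alpha chain and a beta chain, and the pairing of the chains sets what the receptor binds. The beta 2 chain (*Itgb2*, CD18) pairs with alpha chains found on leukocytes and binds adhesion molecules of the immunoglobulin type on other cells, whereas the beta 1 and alpha-v families bind matrix proteins such as collagen, fibronectin and laminin. In the lung, the alpha-v integrins with beta 6 or beta 8 are known for releasing active transforming growth factor beta from its latent complex. Selectins slow leukocytes on the vessel wall before integrins arrest them, and laminin-binding integrins anchor epithelium and muscle to the basement membrane.

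Promoter sequences of the integrin genes that were higher in MWCNT-treated rats at all 3 time points are shown first, because the results below turn on these genes. They came from the RefSeq annotation of build GRCr8, which held a promoter for 24 of the 33 symbols. *Itgb2* and *Selplg* had no entry there. Each line gives the 250 bases before the annotated start, 5′ to 3′ on the strand of the gene. Capitals mark matches, on either strand, to any of 4 motifs searched: the PU.1 core (GAGGAA), AP-1 (TGANTCA), the GC box (GGGCGG) and the TATA box (TATAAA). *Itgam* lies on the plus strand with these bases at chr1:192089342-192089591, *Itgax* on the plus strand at chr1:192149799-192150048, *Itgav* on the plus strand at chr3:89245132-89245381, *Itgb6* on the minus strand at chr3:65530334-65530583 and *Itgb8* on the minus strand at chr6:146351246-146351495.
Itgam: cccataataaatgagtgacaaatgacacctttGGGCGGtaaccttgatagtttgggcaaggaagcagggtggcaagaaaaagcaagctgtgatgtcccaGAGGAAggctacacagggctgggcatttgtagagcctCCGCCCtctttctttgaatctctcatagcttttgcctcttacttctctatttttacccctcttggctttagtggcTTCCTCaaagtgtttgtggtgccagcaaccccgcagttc
Itgax: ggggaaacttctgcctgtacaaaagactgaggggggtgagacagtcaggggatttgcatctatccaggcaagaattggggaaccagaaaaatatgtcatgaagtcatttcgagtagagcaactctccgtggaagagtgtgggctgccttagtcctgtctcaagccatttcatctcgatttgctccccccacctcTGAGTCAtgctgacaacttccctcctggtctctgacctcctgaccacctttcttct
Itgav: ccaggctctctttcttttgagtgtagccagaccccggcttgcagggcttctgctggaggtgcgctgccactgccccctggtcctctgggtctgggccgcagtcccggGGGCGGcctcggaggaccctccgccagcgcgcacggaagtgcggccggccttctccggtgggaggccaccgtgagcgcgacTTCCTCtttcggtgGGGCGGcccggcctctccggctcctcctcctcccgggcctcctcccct
Itgb6: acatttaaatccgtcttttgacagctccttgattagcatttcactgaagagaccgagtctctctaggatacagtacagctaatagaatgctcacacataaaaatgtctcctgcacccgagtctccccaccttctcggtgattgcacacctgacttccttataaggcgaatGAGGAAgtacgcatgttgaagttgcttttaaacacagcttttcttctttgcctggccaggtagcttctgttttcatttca
Itgb8: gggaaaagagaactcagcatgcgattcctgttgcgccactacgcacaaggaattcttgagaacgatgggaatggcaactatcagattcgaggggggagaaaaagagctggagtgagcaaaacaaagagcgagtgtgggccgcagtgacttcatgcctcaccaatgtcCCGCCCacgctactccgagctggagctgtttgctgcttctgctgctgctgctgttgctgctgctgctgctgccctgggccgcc

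PU.1 is a transcription factor of myeloid cells and B cells, and AP-1 acts in stress and inflammation. The *Itgam* sequence held 2 PU.1 core matches, 151 and 39 bases before the start, and 2 GC boxes. The *Itgax* sequence held an AP-1 match 56 bases before the start and no PU.1 core. *Itgav* and *Itgb6* each held 1 PU.1 core, at 62 and 80 bases before the start, and *Itgb8* held only a GC box at 83 bases. Over the 300 bases from 250 before to 50 after the start, the PU.1 core was found in 8 of the 24 promoters (33.3%) and in 27.6% of all 33469 promoters of the annotation. AP-1 was found in 1 of the 24 (4.17%) against 7.33% of all promoters, and the GC box in 11 (45.8%) against 33.1%. The TATA box was found in *Itgb7*, *Icam1* and *Vcam1* (12.5%) against 14.2% of all promoters. In the 5 sequences shown no match overlapped another. These matches describe letters in a window and say nothing of binding.

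Expression is given as CPM, the counts of a gene scaled to a common library size that was adjusted by the trimmed mean of M-values (TMM), and, where genes are set beside each other, as TPM, which are also scaled for gene length. The libraries held 13297643 to 17868851 counts in control rats and 14661589 to 21130757 in MWCNT-treated rats. Differences are log2 fold changes of MWCNT-treated over control rats with their standard errors, from edgeR's quasi-likelihood test. A gene was called higher or lower at a Benjamini-Hochberg false discovery rate (FDR) under 0.05 over all genes tested. Of the 31 genes, 29 passed the filter on low counts. *Itga10*, a collagen receptor chain of cartilage, stayed at or below 0.560 CPM in every rat, and *Madcam1*, an addressin of gut vessels, at or below 0.260 CPM, and these 2 were not tested. The lung markers *Sftpc*, *Sftpb*, *Ager* and *Scgb1a1* were abundant in every library, with summed levels of 16990 to 31030 CPM.

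Members of this group moved in both directions, and the largest changes were increases. At Year 0.5, 11 genes were higher and 6 lower of the 29, against 20.2% higher and 18.6% lower among all genes tested. At Year 1, 9 were higher and 5 lower (background 21.6% and 19.6%), and at Year 2, 10 were higher and 5 lower (background 25.2% and 24%). With scaling by library size alone, which shifts the median log2 fold change of all genes by -0.104, -0.135 and -0.171, the splits became 9 and 8, 8 and 7, and 9 and 10. Changes past an absolute log2 fold change of 1 numbered 4, 4 and 7 at the successive time points, and every one was an increase. Among all genes tested, 6.07%, 6.13% and 8.17% increased by that much. Decreases of that size numbered 434 of 14315, 587 of 14345 and 1181 of 14361 genes, beside 869, 880 and 1174 increases. The median log2 fold change over the tested members was 0.05, 0.09 and 0.07, beside -0.02, 0.00 and -0.01 over all genes tested.

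The same direction at all 3 time points was called for 10 genes. Higher throughout were *Itgam*, *Itgax*, *Itgb2*, *Itgb6*, *Itgav*, *Itgb8*, *Selplg* and *Alcam*, and for each of these 8 all 9 MWCNT-treated rats lay above all 9 control rats. Within single time points, 26.2%, 28% and 30.9% of all genes tested had every treated rat above every control, and 25.5%, 26.9% and 28.9% had every treated rat below. The share of all genes with the same call, or with such separation, over all 3 time points together was not computed. The counts of members with these patterns therefore have no background beside them. Lower throughout were *Itga1* and *Itga2b*. A further 9 tested genes were called at no time point by edgeR's quasi-likelihood test, namely *Itgal*, *Itga3*, *Itga6*, *Itgb4*, *Itga9*, *Itgb1*, *Itga7*, *Sele* and *Selp*. The remaining 10 were called at 1 or 2 time points, none of them in opposite directions.

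**Figure D1:**
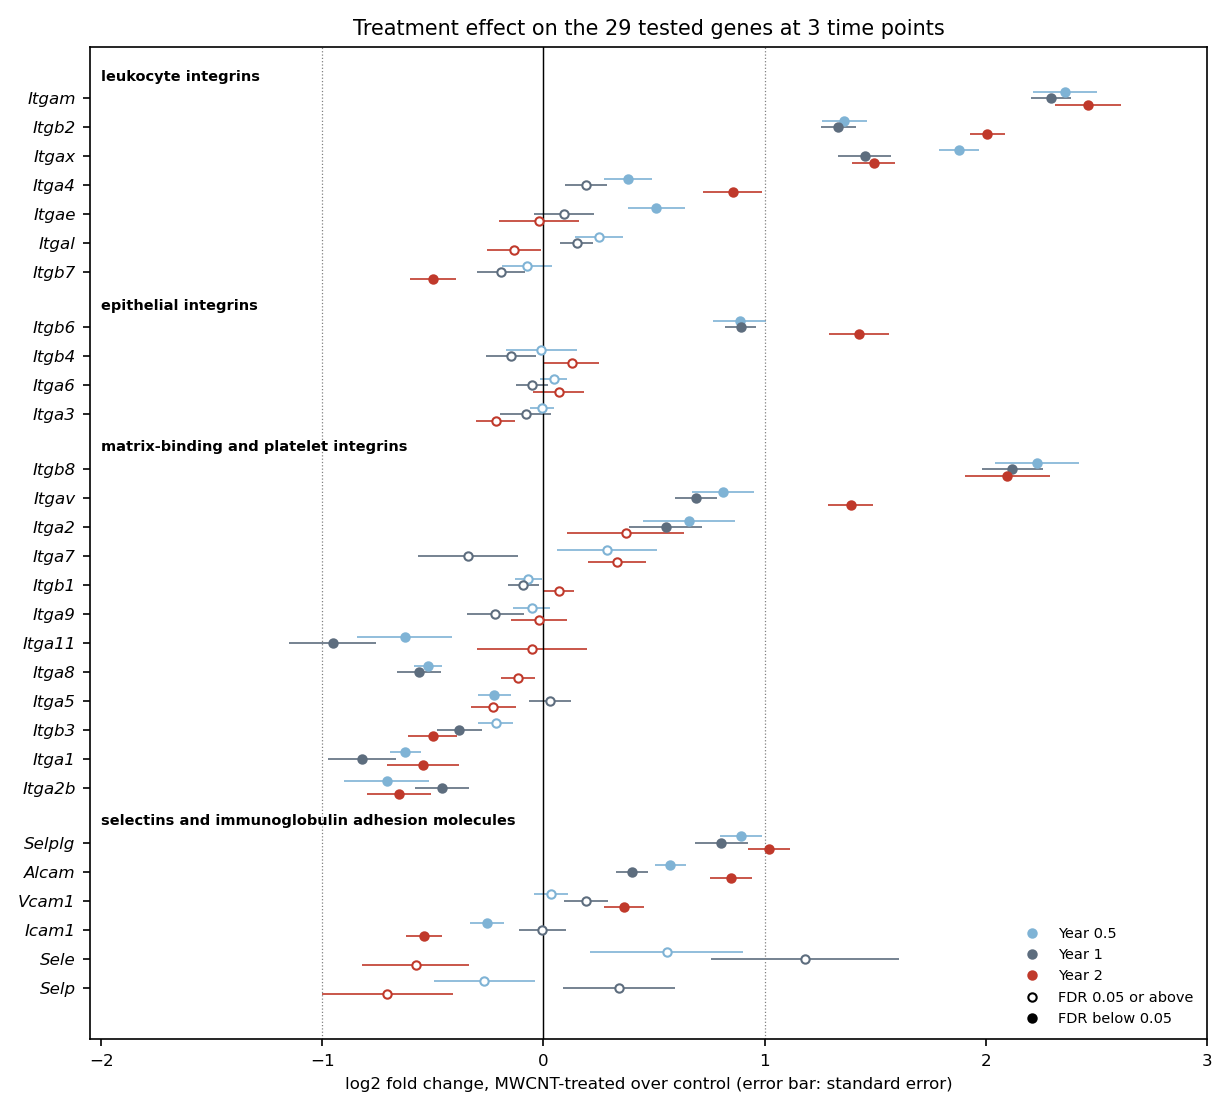
Log2 fold change of MWCNT-treated over control rats (x axis, error bars are standard errors) for the 29 tested genes (y axis, grouped by class) at each of the 3 time points (colours), with filled points at an FDR under 0.05 and dotted lines at -1 and 1. *Itgam* and *Itgb8* lie above 2 at all 3 time points, no gene lies below -1, and the epithelial class is near 0 apart from *Itgb6*.

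By class, leukocyte integrins had the highest median at Year 0.5 and Year 2, and the selectin and immunoglobulin-type genes at Year 1. Of the 7 leukocyte integrin genes, 5, 3 and 4 were higher at the successive time points and 0, 0 and 1 lower, with median log2 fold changes of 0.51, 0.19 and 0.86. Of the 4 epithelial integrin genes, only *Itgb6* was called by this test at any time point, and the medians were 0.02, -0.07 and 0.10. The 12 tested matrix-binding and platelet genes were mixed, with 3 higher and 5 lower at Year 0.5, 3 and 5 at Year 1, and 2 and 3 at Year 2, and medians of -0.14, -0.28 and -0.04. The 6 tested selectin and immunoglobulin-type genes had 2 higher and 1 lower, 2 and 0, and 3 and 1, with medians of 0.30, 0.37 and -0.09.

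The beta 2 chain gene *Itgb2* had the highest level of the leukocyte integrins in TPM, with medians of 131 over the control rats and 324 over the MWCNT-treated rats. In CPM, control rats had 188, 215 and 199 CPM at Year 0.5, 234, 220 and 221 at Year 1, and 192, 197 and 197 at Year 2. MWCNT-treated rats had 525, 577 and 441 CPM at Year 0.5, 535, 601 and 555 at Year 1, and 847, 750 and 768 at Year 2. Every treated rat lay above every control rat, and the 3 treated rats of Year 2 lay above all other treated rats. The log2 fold changes were 1.36 ± 0.10 (FDR 2.80e-05), 1.33 ± 0.08 (FDR 5.94e-06) and 2.01 ± 0.08 (FDR 3.26e-07). On the linear scale these were 2.57-fold, 2.52-fold and 4.02-fold.

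*Itgam* encodes alpha M (CD11b), the partner of beta 2 on monocytes, macrophages and neutrophils that binds complement fragments and fibrinogen. Its levels in control rats were 36.0, 46.1 and 35.0 CPM at Year 0.5, 42.7, 43.4 and 45.3 at Year 1, and 53.2, 78.3 and 53.9 at Year 2. In MWCNT-treated rats they were 204, 231 and 164 CPM, 198, 238 and 207, and 376, 316 and 336. Its log2 fold changes were 2.36 ± 0.15 (FDR 1.15e-05), 2.30 ± 0.09 (FDR 1.32e-06) and 2.46 ± 0.15 (FDR 3.13e-06), or 5.13-fold, 4.92-fold and 5.52-fold. The highest control value, in rat 2 of Year 2, was below the lowest treated value. The *Itgam* entry of the deposited tables (chromosome 1, 199495298 to 199623960, plus strand, Rnor_6.0) spans 128663 bases and contains the *Itgax* entry, and it ends 76 bases before *Cox6a2*. RefSeq orders the genes here as *Itgam*, *Itgax*, *Itgad*, *Cox6a2*. Reads of *Itgam* and of the neighbouring *Itgad* can therefore not be told apart in these tables, and reads within *Itgax* may be shared.

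*Itgax* encodes alpha X (CD11c), carried by alveolar macrophages and dendritic cells. Control rats had 33.1, 36.6 and 30.0 CPM at Year 0.5, 50.0, 35.2 and 45.5 at Year 1, and 48.0, 62.7 and 50.9 at Year 2. MWCNT-treated rats had 128, 126 and 112 CPM, 120, 117 and 120, and 148, 153 and 156. The treated rats of each time point lay close together and above all controls. Its log2 fold changes were 1.88 ± 0.09 (FDR 4.79e-06), 1.45 ± 0.12 (FDR 3.59e-05) and 1.49 ± 0.10 (FDR 4.47e-06).

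*Itgal* encodes alpha L (CD11a), the beta 2 partner of lymphocytes and most other leukocytes that binds ICAM-1. It ranged from 156 to 224 CPM over the 9 control rats, median 200 CPM, and from 152 to 230 CPM over the 9 MWCNT-treated rats, median 209 CPM. The ranges of the control and treated rats overlapped almost entirely. The log2 fold changes were 0.25 ± 0.11 (FDR 0.0940), 0.15 ± 0.07 (FDR 0.136) and -0.13 ± 0.12 (FDR 0.394), and none passed the threshold. Without control rat 2 of Year 0.5, *Itgal* was called higher (0.37, FDR 0.0174), and limma on TPM called it lower at Year 2.

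**Figure D2:**
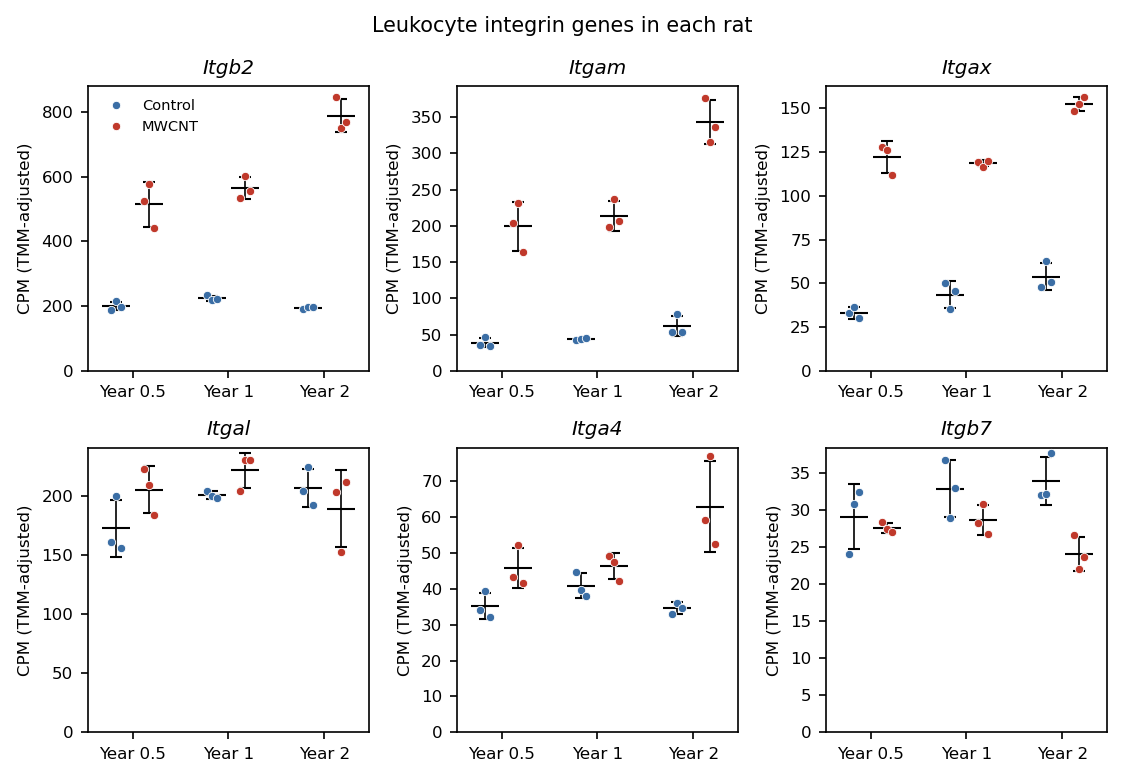
CPM (y axis, TMM-adjusted) of 6 leukocyte integrin genes at the 3 time points (x axis) in control (blue) and MWCNT-treated (red) rats, with 1 point per rat and black bars for the mean and SD of 3 rats. *Itgb2*, *Itgam* and *Itgax* separate completely between control and treated rats, *Itgal* does not, and *Itgb7* is below its controls at Year 2.

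Set beside each other in TPM, the 3 measured alpha chain genes that pair with beta 2 came closer to each other in MWCNT-treated rats. The fourth partner, alpha D, is encoded by *Itgad*, whose reads cannot be separated from those of *Itgam* here. In control rats *Itgal* made up 74.9, 75.9 and 75.7% of the summed alpha chain TPM at Year 0.5, 73.3, 76.8 and 73.5% at Year 1, and 72.2, 67.4 and 70.1% at Year 2. In MWCNT-treated rats it made up 47.3, 44.3 and 46.9%, 46.4, 47.2 and 48.8%, and 35.4, 30.9 and 37.3%. The share of *Itgam* went from means of 10.4, 9.89 and 12.6% in controls to 27.2, 27.9 and 38.3% in treated rats, with SDs of 0.234 to 2.29 percentage points over 3 rats. For *Itgax* the means were 14.1, 15.6 and 17.5% in controls and 26.6, 24.6 and 27.2% in treated rats. No control rat overlapped a treated rat of its time point in any of the 3 shares. In TPM, *Itgal* had the highest share in every control rat and in 7 of the 9 treated rats, and *Itgam* in 2 treated rats of Year 2. In CPM, *Itgam* had the highest share in all 3 treated rats of Year 2 and in treated rat 2 of Year 0.5 and of Year 1. These shares depend on the gene lengths used for TPM, and the *Itgam* model was 1.65 times as long as that of *Itgal*, so that its TPM is low relative to its CPM.

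**Figure D3:**
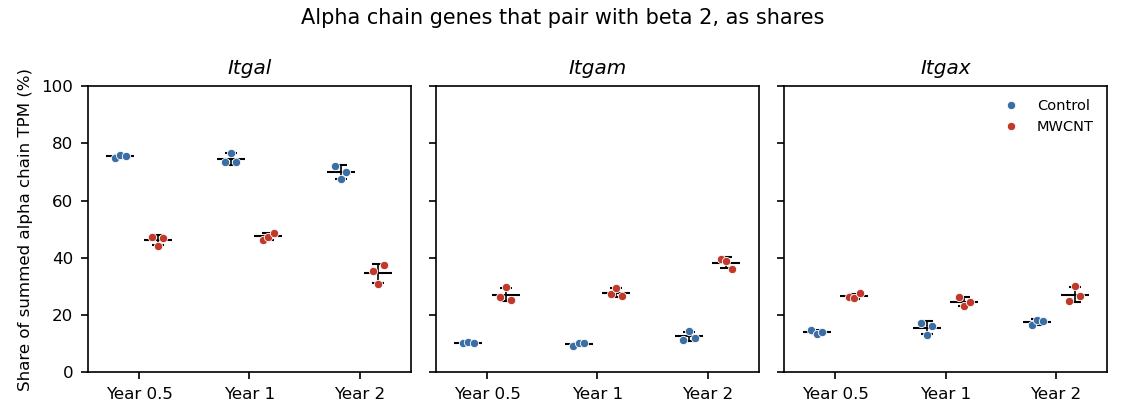
Share (y axis, percent) of *Itgal*, *Itgam* and *Itgax* in their summed TPM at the 3 time points (x axis), with 1 point per rat for control (blue) and MWCNT-treated (red) rats and black bars for the mean and SD of 3 rats. *Itgal* falls from a mean of 69.9% in controls to 34.6% in treated rats at Year 2, while *Itgam* goes from 12.6 to 38.3%.

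The beta chain gene was also higher relative to the summed alpha chain genes, a difference that was not tested. The ratio of *Itgb2* TPM to the summed TPM of *Itgal*, *Itgam* and *Itgax* was 1.27 ± 0.107 (SD, n = 3), 1.20 ± 0.0211 and 0.952 ± 0.0912 at the successive time points in control rats. In treated rats it was 1.66 ± 0.0852, 1.73 ± 0.0429 and 2.08 ± 0.125. The highest control ratio, 1.38, was below the lowest treated ratio, 1.60. Like the shares, this ratio depends on the gene length used for *Itgam*, whose part of the summed TPM was larger in treated rats.

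The other leukocyte integrins changed less. *Itga4* encodes alpha 4, the chain of VLA-4 on lymphocytes and monocytes that binds VCAM-1. At Year 2 it was at 32.9, 36.1 and 34.7 CPM in control rats and at 59.1, 77.0 and 52.5 CPM in treated rats, a log2 fold change of 0.86 ± 0.13 (FDR 0.000698), without overlap. It was also higher at Year 0.5, by 0.38 ± 0.11 (FDR 0.0226), a call lost when control rat 1, control rat 3 or treated rat 2 was left out (FDR 0.0644 to 0.0827) and with scaling by library size alone. Both limma fits on TPM lost that call too (FDR 0.115 and 0.114). At Year 1 the log2 fold change of *Itga4* was 0.19 ± 0.10 (FDR 0.136).

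*Itgb7* encodes the beta 7 chain of lymphocytes that home to mucosa, where it pairs with alpha 4 or alpha E. EdgeR's quasi-likelihood test called *Itgb7* lower at Year 2 alone, at 26.6, 22.1 and 23.6 CPM in treated rats against 32.0, 32.2 and 37.7 CPM in controls, a log2 fold change of -0.50 ± 0.10 (FDR 0.00369). Its log2 fold changes at Year 0.5 and Year 1 were -0.07 and -0.19. At Year 1 it was called lower with scaling by library size alone (FDR 0.0331) and by limma on TPM. *Itgae*, the alpha E chain (CD103) of lymphocytes within epithelium, was higher at Year 0.5 alone. Treated rats then had 12.7, 14.0 and 16.4 CPM and controls 9.68, 10.4 and 10.2 CPM, a log2 fold change of 0.51 ± 0.13 (FDR 0.0134), and without control rat 1 the call was lost (FDR 0.0504). Both limma fits on TPM lost that call too (FDR 0.0767 and 0.0809). The *Itgae* entry overlaps those of 5 other genes, so part of its reads cannot be told apart from theirs.

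Markers of leukocyte types moved beside these genes. The summed CPM of 5 genes of all leukocytes ranged from 1168 to 1446 in control rats and from 1931 to 2625 in treated rats, with 4, 3 and 4 of the 5 higher at the successive time points. For 5 macrophage markers the sums ranged from 416 to 561 CPM in controls and from 902 to 1270 CPM in treated rats, and 4, 4 and 5 of the 5 were higher. The fifth, *Cd163*, was lower at Year 1 (-1.16, FDR 0.00681). For 5 neutrophil markers the group means went from 81.3 to 126, from 109 to 289 and from 108 to 280 CPM. Only 1, 2 and 2 of the 4 tested neutrophil markers were higher, *S100a9* at each time point and *S100a8* at Year 1 and Year 2, and *Mpo* was at 0 in some libraries. Of the 5 T cell markers, *Cd4*, which rat macrophages also carry, was higher at each time point, and 3, 1 and 4 of the 5 were lower. The 4 B cell markers fell from a mean sum of 46.2 to 20.5 CPM at Year 0.5, and all 4 were called lower then. The part of these cell types in the integrin changes was not tested.

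Among epithelial integrins, edgeR's quasi-likelihood test called *Itgb6* alone. *Itga3* and *Itga6* encode laminin-binding alpha chains of epithelium, and *Itgb4* the beta chain of hemidesmosomes. *Itga3* ranged from 247 to 340 CPM in control and from 230 to 334 CPM in treated rats, *Itga6* from 111 to 154 and from 115 to 153 CPM, and *Itgb4* from 36.3 to 60.4 and from 36.5 to 53.9 CPM. Their log2 fold changes lay between -0.22 and 0.13 at all 3 time points, and this test called none. *Itga3* at Year 2 (-0.22 ± 0.09, FDR 0.0672) was called lower by DESeq2 (FDR 0.0373), with upper quartile scaling (FDR 0.0261), with scaling by library size alone (FDR 0.0048), by limma on TPM and without control rat 3 (FDR 0.0105). *Itga3* at Year 0.5 and *Itga6* at Year 1 were called lower by limma on TPM. The ratio of *Itgb4* to *Itga6* in TPM was 0.294 to 0.334 in the group means of control rats and 0.303 to 0.322 in those of treated rats. The summed CPM of 5 epithelial markers had means of 610, 596 and 589 in control rats and 691, 670 and 664 in treated rats.

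*Itgb6* encodes beta 6, which is known from epithelium under injury and pairs only with alpha-v. Control rats had 114, 112 and 133 CPM at Year 0.5, 105, 109 and 98.4 at Year 1, and 71.9, 75.5 and 98.2 at Year 2. MWCNT-treated rats had 224, 256 and 184 CPM, 194, 195 and 189, and 244, 231 and 188. Every treated rat lay above every control rat, and the controls of Year 2 included the lowest values. Its log2 fold changes were 0.89 ± 0.12 (FDR 0.000591), 0.89 ± 0.07 (FDR 2.88e-05) and 1.43 ± 0.14 (FDR 3.56e-05).

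*Itgav* encodes alpha-v, the shared partner of beta 3, beta 6 and beta 8. Control rats had 35.4, 33.9 and 40.1 CPM at Year 0.5, 36.3, 43.4 and 34.6 at Year 1, and 24.1, 24.0 and 29.9 at Year 2. In MWCNT-treated rats the values were 65.1, 75.9 and 50.6 CPM, 63.1, 59.9 and 60.1, and 72.7, 67.7 and 64.9. The groups did not overlap at any time point, and the gap was widest at Year 2. The log2 fold changes were 0.81 ± 0.14 (FDR 0.00199), 0.69 ± 0.10 (FDR 0.000658) and 1.39 ± 0.10 (FDR 7.75e-06).

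*Itgb8* encodes beta 8, another partner of alpha-v only. It was a low-level gene in control rats, at 3.67, 4.44 and 6.05 CPM at Year 0.5, 6.15, 6.21 and 4.87 at Year 1, and 4.26, 3.81 and 6.57 at Year 2. In MWCNT-treated rats it was at 20.1, 25.8 and 20.4 CPM, 27.2, 22.1 and 25.0, and 20.6, 20.5 and 21.8. The lowest treated value was 20.1 CPM and the highest control value 6.57 CPM, so the groups did not come near each other. The log2 fold changes were 2.23 ± 0.19 (FDR 5.62e-05), 2.12 ± 0.14 (FDR 9.86e-06) and 2.10 ± 0.19 (FDR 2.90e-05), or 4.70-fold, 4.35-fold and 4.28-fold.

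*Itgb3* encodes beta 3, the partner of alpha-v on endothelium, macrophages and osteoclasts and of alpha IIb on platelets, and it went the other way. At Year 2 it was at 19.1, 18.8 and 21.0 CPM in control rats and at 13.8, 12.9 and 15.1 CPM in treated rats, a log2 fold change of -0.50 ± 0.11 (FDR 0.00470). At Year 1 the log2 fold change was -0.38 ± 0.10 (FDR 0.0168), a call lost without control rat 1, control rat 2 or treated rat 1 (FDR 0.0506 to 0.0523). At Year 0.5 it was -0.22 ± 0.08 (FDR 0.0567) and not called, although all treated rats lay below all controls. Upper quartile scaling (FDR 0.0289), scaling by library size alone (FDR 0.0112) and limma on TPM called *Itgb3* lower then. Its entry overlaps that of *AABR07030543.1*.

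**Figure D4:**
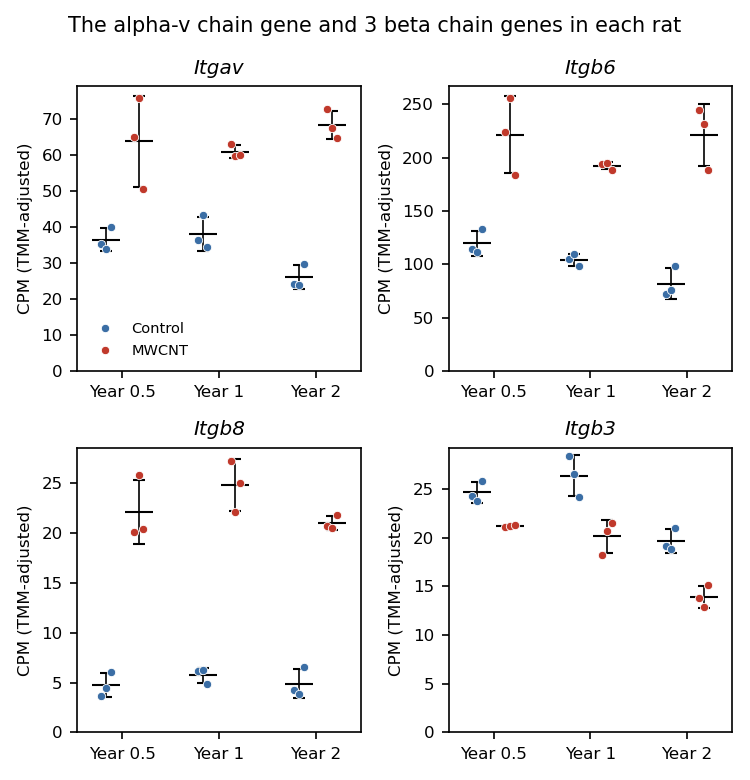
CPM (y axis, TMM-adjusted) of *Itgav* and of the beta chain genes *Itgb6*, *Itgb8* and *Itgb3* at the 3 time points (x axis), with 1 point per rat for control (blue) and MWCNT-treated (red) rats and black bars for the mean and SD of 3 rats. *Itgav*, *Itgb6* and *Itgb8* are higher in all treated rats, and *Itgb3* is lower in all treated rats of each time point.

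Among these 3 beta chain genes, in TPM, *Itgb6* held the largest share in every group. Its mean share was 68.7, 63.8 and 64.4% in control rats and 75.5, 72.6 and 79.8% in treated rats. *Itgb3* went from 27.7, 31.5 and 30.5% to 14.4, 14.9 and 9.96%, and *Itgb8* from 3.60, 4.69 and 5.09% to 10.1, 12.5 and 10.2%. *Itgb6* and *Itgav* kept a similar ratio to each other, at 2.29, 1.92 and 2.19 in the group means of control rats and 2.44, 2.21 and 2.25 in those of treated rats. The ratio of *Itgb8* to *Itgav* was 0.120, 0.141 and 0.173 in controls and 0.328, 0.379 and 0.288 in treated rats. *Itgb1*, which also pairs with alpha-v, is left out of these shares because it pairs with many other alpha chains. *Itgb5* was not analysed here and is missing from them too, so they are shares among these 3 genes only.

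*Itgb1* encodes beta 1, the common chain of collagen, laminin and fibronectin receptors, and had the highest level of all members in TPM, with a median of 511 over the control rats. It ranged from 729 to 941 CPM in control rats and from 749 to 925 CPM in treated rats, and its log2 fold changes were -0.07, -0.09 and 0.07 with SEs of 0.06 to 0.07. EdgeR's quasi-likelihood test called it at no time point. Scaling by library size alone called *Itgb1* lower at Year 0.5 (-0.173, FDR 0.0459) and Year 1 (-0.226, FDR 0.0259), as did limma on TPM (-0.214, FDR 0.0152, and -0.327, FDR 0.00423), and both gave it a negative sign at Year 2. *Itga1*, an alpha chain for collagen on smooth muscle and stroma, was at 81.1, 74.5 and 77.5 CPM in control rats and at 53.1, 47.7 and 50.6 CPM in treated rats at Year 0.5. Its log2 fold changes were -0.62 ± 0.07 (FDR 0.000216), -0.82 ± 0.15 (FDR 0.00298) and -0.54 ± 0.16 (FDR 0.0214). At Year 2 control values of 42.2, 53.0 and 58.9 CPM overlapped with treated values of 30.8, 30.9 and 44.4 CPM, and leaving out control rat 2, control rat 3, treated rat 1 or treated rat 2 ended the call (FDR 0.0630 to 0.0778). The entries of *Itga1* and *Pelo* overlap.

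*Itga8*, the nephronectin receptor chain of fibroblasts and smooth muscle, fell at Year 0.5 and Year 1. Control rats had 321, 331 and 310 CPM and treated rats 238, 216 and 215 CPM at Year 0.5, and 304, 327 and 301 against 232, 180 and 216 CPM at Year 1, with log2 fold changes of -0.52 ± 0.06 (FDR 0.000368) and -0.56 ± 0.10 (FDR 0.00210). At Year 2 the controls themselves were lower, at 223, 235 and 253 CPM, and overlapped with treated rats at 211, 212 and 236 CPM (log2 fold change -0.12 ± 0.08, FDR 0.244). Scaling by library size alone (FDR 0.0156) and limma on TPM called *Itga8* lower then. *Itga11*, a collagen receptor chain of fibroblasts, had log2 fold changes of -0.63 ± 0.21 (FDR 0.0454), -0.95 ± 0.20 (FDR 0.00486) and -0.05 ± 0.25 (FDR 0.875). At Year 1 it was at 6.36, 5.13 and 5.30 CPM in controls and 2.71, 2.59 and 3.31 CPM in treated rats. Its Year 0.5 call was lost in 5 of the 6 fits that left out a rat (FDR 0.0728 to 0.146), under DESeq2 and with the replicate block (FDR 0.0564).

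Markers of stroma were lower in the same lungs. The summed CPM of 5 smooth muscle markers had means of 1208, 1137 and 1049 in control rats and 723, 593 and 588 in treated rats, with all 5 lower at each time point. For 5 fibroblast markers the means were 945, 931 and 755 CPM in controls and 612, 587 and 484 CPM in treated rats, with 4 of the 5 lower each time. The part of these cells in the alpha 1, alpha 8 and alpha 11 values was not tested.

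*Itga2*, the alpha chain of a collagen receptor on epithelium and platelets, was the matrix-binding chain that rose apart from *Itgav* and *Itgb8*. Control rats had 4.49, 4.44 and 4.56 CPM and treated rats 8.22, 7.89 and 5.14 CPM at Year 0.5, a log2 fold change of 0.66 ± 0.21 (FDR 0.0349), and at Year 1 it was 0.55 ± 0.16 (FDR 0.0251). Both calls were lost in 5 of the 6 fits without 1 rat, at FDRs of 0.0637 to 0.116 and of 0.0502 to 0.0874, and with scaling by library size alone. Limma on TPM also lost them (FDR 0.098 and 0.11 at Year 0.5, 0.172 and 0.197 at Year 1). The replicate block lost the Year 0.5 call (FDR 0.0504) and the model of all 18 rats the Year 1 call (FDR 0.0563). At Year 2 the groups overlapped (0.37 ± 0.27, FDR 0.275). EdgeR's quasi-likelihood test called *Itga5*, the fibronectin receptor chain, lower at Year 0.5 alone (-0.22 ± 0.07, FDR 0.0420), a call lost in 5 of 6 fits without 1 rat (FDR 0.0714 to 0.181). The replicate block (FDR 0.0751) and the model of all 18 rats (FDR 0.0875) lost that call too. At Year 2 *Itga5* was called lower with upper quartile scaling (FDR 0.0421) and with scaling by library size alone (FDR 0.0096). The same call came from limma on TPM and from the fit without control rat 3 (FDR 0.0057). *Itga9*, a chain that binds tenascin and osteopontin, ranged from 15.1 to 23.5 CPM in control and from 14.0 to 23.4 CPM in treated rats, with log2 fold changes of -0.05, -0.22 and -0.02. At Year 1 it was called lower by limma on TPM and without treated rat 3 (FDR 0.0262).

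*Itga7*, the laminin receptor chain of muscle, was called at no time point with all rats, with log2 fold changes of 0.29, -0.34 and 0.33. Without control rat 1 it was called lower at Year 1 (-0.546, FDR 0.0471). Without control rat 3 it was called higher at Year 2 (0.454, FDR 0.0183). Heart muscle markers varied widely between libraries of the same group, from a summed 53.5 to 597 CPM within the controls of Year 2, and *Itga7* in those rats was at 13.9, 11.8 and 16.2 CPM. The mean sums of these 5 markers were 342, 332 and 280 CPM in control rats and 117, 128 and 80.3 CPM in treated rats. At the successive time points 4, 1 and 1 of the 5 were called lower. The part of muscle in the *Itga7* values was not tested. The *Itga7* entry overlaps that of *Mettl7b*.

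*Itga2b* encodes alpha IIb, the platelet and megakaryocyte chain that pairs with beta 3. Control rats had 14.3, 10.7 and 9.89 CPM at Year 0.5, 11.2, 11.7 and 12.7 at Year 1, and 10.2, 10.7 and 9.30 at Year 2. MWCNT-treated rats had 6.42, 6.35 and 8.66 CPM, 7.93, 9.18 and 8.67, and 5.97, 6.41 and 6.94. All 9 treated rats lay below all 9 control rats. The log2 fold changes were -0.71 ± 0.19 (FDR 0.0183), -0.46 ± 0.12 (FDR 0.0165) and -0.65 ± 0.14 (FDR 0.00482). The Year 0.5 call was lost without control rat 1, treated rat 1 or treated rat 2 (FDR 0.0594 to 0.0774) and the Year 1 call without control rat 3 or treated rat 1 (FDR 0.0534 to 0.0759). Of 4 tested platelet markers, only *Pf4* was higher at each time point, and 1, 3 and 2 were lower, with median log2 fold changes of -0.86, -1.04 and -1.31. *Gp1bb* was lower at each time point. The sum of the 5 markers, in which *Pf4* has the largest part, had means of 12.1, 13.1 and 14.4 CPM in control rats and 19.4, 25.0 and 25.2 CPM in treated rats.

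Among selectins and their ligand, only the ligand was called. *Selplg* encodes PSGL-1, the selectin ligand on leukocytes. Control rats had 28.9, 33.4 and 33.7 CPM at Year 0.5, 41.3, 35.0 and 34.5 at Year 1, and 35.6, 39.9 and 36.9 at Year 2. MWCNT-treated rats had 56.0, 66.1 and 56.3 CPM, 56.7, 74.6 and 60.9, and 85.9, 72.8 and 70.4. No treated rat overlapped a control rat. The log2 fold changes were 0.90 ± 0.09 (FDR 0.000167), 0.80 ± 0.12 (FDR 0.000986) and 1.02 ± 0.09 (FDR 2.98e-05).

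The endothelial selectins *Sele* and *Selp*, which capture leukocytes on activated vessels, were low and variable. *Sele* was at 2.90, 0.887 and 1.66 CPM in controls and 5.42, 4.31 and 2.45 CPM in treated rats at Year 1, with overlap and a log2 fold change of 1.18 ± 0.43 (FDR 0.0517). At Year 2 the order was the opposite, at 4.81, 4.45 and 3.78 CPM in controls and 2.21, 3.36 and 3.16 CPM in treated rats, with a log2 fold change of -0.58 ± 0.24 (FDR 0.0756). *Selp*, which platelets also carry, was at 9.01 CPM or above in the controls and at 3.69, 9.34 and 5.12 CPM in treated rats at Year 2, with overlap and a log2 fold change of -0.71 ± 0.30 (FDR 0.0750). *Sele* at Year 1 was called higher by DESeq2 (FDR 0.0188), the likelihood ratio test (FDR 0.0237), either other filter, the model of all 18 rats, the replicate block (FDR 0.0294) and without control rat 1 or treated rat 3. *Selp* at Year 2 was called lower by DESeq2 (FDR 0.0368), limma on TPM, library size scaling, the replicate block (FDR 0.0326) and without treated rat 2. *Sele* at Year 2 was called lower by limma on TPM and with library size scaling (FDR 0.0301).

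The immunoglobulin-type molecules did not move together. *Alcam*, a homophilic adhesion molecule of epithelium and leukocytes, was at 303, 282 and 310 CPM in controls and 463, 456 and 413 CPM in treated rats at Year 0.5, and at 226, 210 and 266 against 441, 424 and 405 CPM at Year 2. All treated rats lay above all controls, and the log2 fold changes were 0.57 ± 0.07 (FDR 0.000328), 0.40 ± 0.07 (FDR 0.00253) and 0.85 ± 0.10 (FDR 9.51e-05), of which the Year 1 call was lost with limma on TPM. *Icam1*, the ligand of alpha L and alpha M on endothelium and alveolar epithelium, was at 576, 582 and 507 CPM in controls and 366, 382 and 402 CPM in treated rats at Year 2, a log2 fold change of -0.54 ± 0.08 (FDR 0.000590). It was -0.26 ± 0.08 (FDR 0.0269) at Year 0.5, lost without control rat 1 or 2 or treated rat 2 or 3 (FDR 0.0779 to 0.112), and -0.01 ± 0.11 (FDR 0.972) at Year 1. *Vcam1*, the endothelial ligand of alpha 4, was called at Year 2 alone, at 83.9, 91.3 and 78.9 CPM in treated rats against 72.5, 60.6 and 63.6 CPM in controls (0.36 ± 0.09, FDR 0.00816). That call was lost with scaling by library size alone (FDR 0.0973) and in both limma fits on TPM (FDR 0.19 and 0.188).

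**Figure D5:**
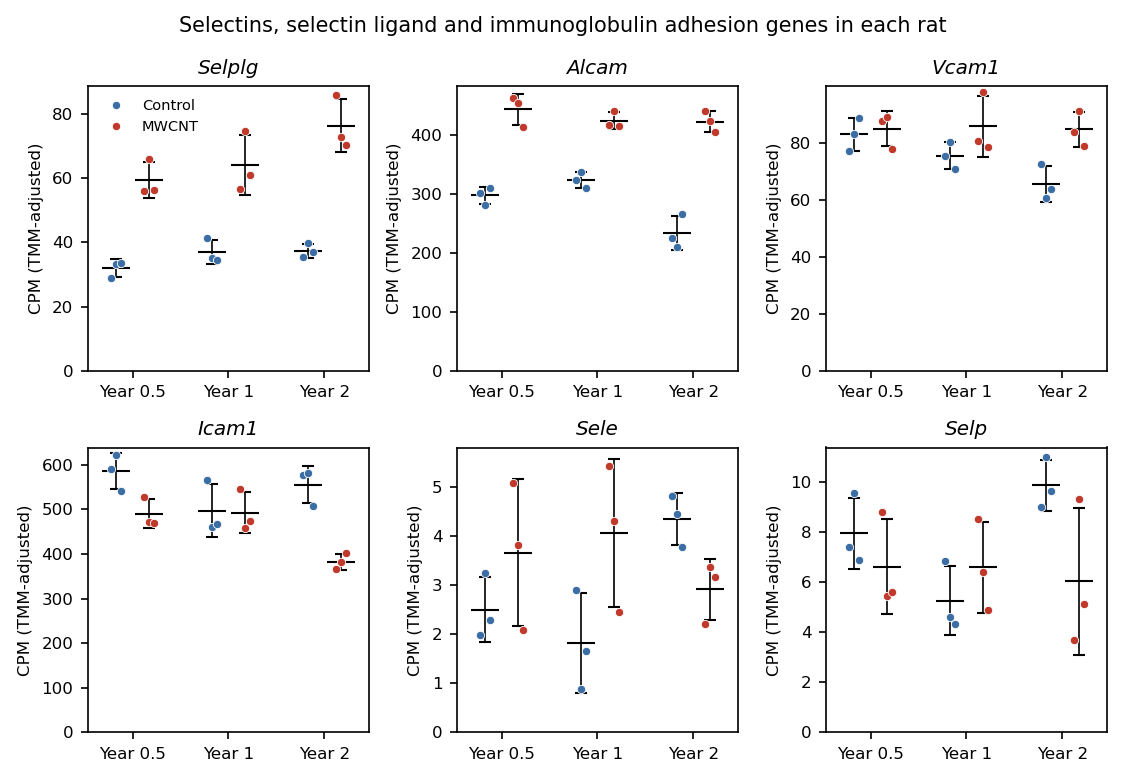
CPM (y axis, TMM-adjusted) of *Selplg*, *Alcam*, *Vcam1*, *Icam1*, *Sele* and *Selp* at the 3 time points (x axis), with 1 point per rat for control (blue) and MWCNT-treated (red) rats and black bars for the mean and SD of 3 rats. *Selplg* and *Alcam* are higher in every treated rat, *Icam1* is lower at Year 2, and *Sele* and *Selp* scatter widely below 12 CPM.

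Endothelial markers were lower in MWCNT-treated lungs. The summed CPM of *Cdh5*, *Kdr*, *Tek*, *Tie1* and *Vwf* went from means of 4058, 3574 and 3342 in controls to 2365, 2164 and 1552 in treated rats, and all 5 were lower at each time point. *Vcam1* and *Icam1*, both of which endothelium carries, moved in opposite directions at Year 2 beside this fall, and its part in them was not tested.

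The treatment effect on *Itgb2* differed between time points. Its log2 fold change was larger at Year 2 than at Year 0.5 by 0.65 ± 0.12 (FDR 0.0153) in the interaction test over all 18 rats, and it was the only member called, with 1.31% of all 14843 genes called. Without treated rat 1 of Year 2 the difference was 0.597 (FDR 0.0538) and the *Itgb2* call was lost, and it was kept in the other 11 fits that left out a rat. *Itgav* (0.59, FDR 0.130) and *Itgb6* (0.55, FDR 0.162) also had larger increases at Year 2, without being called in this test. For *Itga8* the difference was 0.41 (FDR 0.0964), also not called. There the fall seen at Year 0.5 was smaller at Year 2. Negative differences, not called either, included -0.38 for *Itgal* (FDR 0.312), -0.38 for *Itgax* (FDR 0.291), -0.42 for *Itgb7* (FDR 0.246) and -0.53 for *Itgae* (FDR 0.302). The most negative difference of any member, -1.128, was in the selectin and immunoglobulin-type class and was not called. At an unadjusted p under 0.05 there were 13 of the 29 members and 2055 of the 14843 genes. DESeq2 and edgeR's likelihood ratio test called *Itga8* too (FDR 0.0322 and 0.0484). Between Year 1 and Year 0.5, edgeR's quasi-likelihood test called 0 members and 0 of all genes. At an unadjusted p under 0.05 there were 1 member, *Itgax*, and 1260 genes, and DESeq2 called 6 genes and the likelihood ratio test 2, none of them members.

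Within control rats, 2 members were higher and 9 lower at Year 2 than at Year 0.5, against 2.65% and 4% of all genes called. *Itgam* rose by 0.67 ± 0.15 (FDR 0.0181) and *Itgax* by 0.70 ± 0.12 (FDR 0.00310) on the log2 scale. *Itgb6*, *Itga1*, *Itga8*, *Itga9*, *Itgav*, *Itgb1*, *Itgb3*, *Vcam1* and *Alcam* were lower, with log2 fold changes from -0.60 for *Itga1* to -0.33 for *Itgb1*. Only *Itgax*, *Itga8* and *Itgb1* kept their call whichever rat was left out, and the count fell to 3 without control rat 1 or 3 of Year 0.5 or control rat 2 of Year 2, and to 5 without control rat 1 of Year 2. Age, the time of sampling and the number of vehicle instillations received cannot be told apart in this comparison.

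Within MWCNT-treated rats, 4 members were higher and 6 lower at Year 2 than at Year 0.5, against 6.65% and 6.87% of all genes called. *Itgam* rose by 0.78 ± 0.14 (FDR 0.00185), *Itgb2* by 0.61 (FDR 0.000198), *Itga4* by 0.46 ± 0.12 (FDR 0.0213) and *Selplg* by 0.36. *Itga3*, *Itga1*, *Itga9*, *Itgb1*, *Itgb3* and *Icam1* were lower, down to a log2 fold change of -0.61 for *Itgb3*. *Itgam*, *Itgb2*, *Itga3* and *Itgb3* kept their call whichever rat was left out. The count fell to 5 without treated rat 1 of Year 0.5 or treated rat 2 of Year 2, and to 6 without treated rat 3 of Year 0.5 or treated rat 1 of Year 2. *Itgav* and *Itgb6* were not among them. Their treated levels at Year 2 (64.9 to 72.7 and 188 to 244 CPM) overlapped with those at Year 0.5, while their control levels were lower at Year 2. Age, the time of sampling and the number of MWCNT instillations received cannot be told apart in the comparison within treated rats.

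The proteins that switch integrins on from inside the cell were measured as a list of 12 genes, of which 5 were higher and 4 lower at Year 0.5, 4 and 3 at Year 1, and 3 and 5 at Year 2. Among all genes tested, 20.2, 21.6 and 25.2% were higher and 18.6, 19.6 and 24% lower at the successive time points. *Fermt3*, the kindlin of blood cells, went from a mean of 87.1 to 222 CPM at Year 2, a log2 fold change of 1.35 (FDR 3.32e-06), and *Fermt1*, the kindlin of epithelium, had one of 4.24 (FDR 0.00307). *Fermt2*, the kindlin of stroma, had a log2 fold change of -1.01 (FDR 9.15e-06) and *Rasgrp2*, a platelet and leukocyte activator of Rap1, one of -1.40 (FDR 0.000430). The 3 kindlin genes thus moved in different directions. Of 16 focal adhesion genes, 2, 1 and 2 were higher and 8, 9 and 9 lower at the successive time points. *Parvg*, the parvin of leukocytes, was higher at Year 2 by 1.19 (FDR 8.64e-06), and *Lims2* (-1.30, FDR 1.35e-05) and *Tns2* (-1.08, FDR 1.75e-05), which link integrins to actin, were lower.

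More of the listed integrin ligand genes were higher than lower. Of 11 tested ligand genes, 9 were higher and 1 lower at Year 0.5, 6 and 1 at Year 1, and 9 and 1 at Year 2, with median log2 fold changes of 0.57, 0.44 and 0.86. The background for this list and the next was 20.2, 21.6 and 25.2% higher and 18.6, 19.6 and 24% lower. Both lists were chosen with earlier results of these data known. *Spp1*, which encodes osteopontin, a ligand of alpha-v, alpha 4 and alpha 9 integrins, went from a mean of 2.01 to 1190 CPM at Year 2, a log2 fold change of 9.23 (FDR 2.58e-06). *Fn1*, fibronectin, was higher by 1.49 (FDR 2.10e-06) and *Vtn*, vitronectin, lower at -0.9995 (FDR 0.000288). Of 15 tested genes of leukocyte adhesion and passage through vessels outside the list of members, 3, 4 and 5 were higher and 7 lower at each time point. *Cd44*, the hyaluronan receptor (1.44, FDR 5.74e-06), and *Fut4*, a fucosyltransferase for selectin ligands (1.05, FDR 1.51e-05), were higher at Year 2. The endothelial genes *Jam2* (-1.35, FDR 5.35e-06) and *Icam2* (-1.15, FDR 8.16e-05) were lower.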

How the data were processed

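RNA-seq of rat lung was deposited as 1 table per time point. Per the submitters' processing notes and the study's methods, the authors mapped reads to the rat genome (Rnor_6.0) in CLC Genomics Workbench. The deposited tables give total counts per gene, which are raw, and TPM, which the authors scaled for gene length and library; RPKM, CPM and the authors' own fold changes and p-values were not used. How reads of overlapping genes or of either strand were assigned is not given in the sources used here.

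Each sample's group came from its labels. Counts were tested with edgeR 4.0.16 in R 4.3.3: genes were kept by filterByExpr (minimum count 10, minimum total 15), scaled by TMM, and fitted with the quasi-likelihood test for the 6 rats of each time point, or for all 18 rats for interactions and changes over time. FDR values are Benjamini-Hochberg adjusted over all genes tested. CPM is counts over TMM-adjusted library sizes. Libraries held 13297643 to 21130757 counts. Each rat is 1 animal, and replicate pairs differed by more than counting noise. Alternatives were other filters, scalings and thresholds, DESeq2 1.42.0, the likelihood ratio test, limma 3.58.1 on log2(TPM + 1) and on log2(TPM + 0.1), a replicate block and leaving out each rat. The scripts were tested on simulated data.

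All 33 listed genes were named, with the genes of 4 pathway lists by their largest Year 2 changes. Members and lists were chosen with earlier results of these data known, so their counts are read against those of all genes. Promoters and motif counts were read from the RefSeq table of build GRCr8 with Python 3.11.15. Sequences for the remaining 9 symbols were not used here.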

Additional observations from a re-analysis of the deposited data

Results flagged for a closer look

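The treatment effect on *Itgb2*, the common beta chain of leukocyte integrins, differed between Year 2 and Year 0.5. The log2 fold change of MWCNT-treated over control rats was larger at Year 2 by 0.652 (FDR 0.0153, edgeR's quasi-likelihood test over 18 rats). All 3 treated rats of Year 2, at 847, 750 and 768 CPM, lay above all 3 treated rats of Year 0.5, at 525, 577 and 441 CPM, while the control rats were at 192 to 197 CPM and at 188 to 215 CPM. Without treated rat 1 of Year 2 the difference was 0.597 and the *Itgb2* call was lost (FDR 0.0538). The groups held 3 rats each, too few for a test of single outlying rats.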

How the results depend on the processing

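Counts of called members kept within 1.5 times of the reported 17, 14 and 15 under other filters, scalings, tools and the replicate block, and none of the genes that changed sign had been called. Stricter rules lowered them. With an absolute log2 fold change above 1 the counts were 4, 4 and 7 at the successive time points and 0 for the interaction and both changes over time; at an FDR under 0.01 they were 10 at Year 0.5, 0 for the interaction, 3 in control rats over time and 4 in MWCNT-treated rats over time. DESeq2 and the likelihood ratio test each called 2 members for the interaction. Leaving out 1 rat gave 10 to 15 members at Year 0.5, with 10 without control rat 1 and 11 without treated rat 2, then 12 to 15 at Year 1, 14 to 17 at Year 2, 0 to 2 for the Year 2 interaction, 3 to 10 in control rats over time and 5 to 9 in treated rats over time. For the interaction it was 0 without treated rat 1 of Year 2, and 2 without control rat 3 of Year 2 (adding *Itgb6*) or treated rat 2 of Year 0.5 (adding *Itgav*). On log2(TPM + 1), limma called 8 higher and 9 lower at Year 0.5, 7 and 9 at Year 1, and 9 and 11 at Year 2; over all genes called, the share higher went from 52.1, 52.3 and 51.2% to 30.6, 23.9 and 28%. With library size alone it was 35.1, 33.2 and 31.7%. TPM is not TMM-adjusted. Of 109 member values, calls were gained for 13 under either limma fit, 9 under library size alone and 3 each under DESeq2 and upper quartile scaling. Calls were lost for 9 under either limma fit and 7 under library size alone. A further 3 each were lost with no filter on low counts and with the replicate block, and 1 each under DESeq2 and upper quartile scaling.

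The sample labels state no pairing of rats by replicate number. Deviations of same-numbered rats correlated at a mean of 0.0105, and 1 of 9 pairs was over 0.1. For different numbers the mean was -0.00468, and 3 of 18 pairs were over 0.1. Such correlations, from groups of 3 rats, cannot exclude pairing. With the replicate block the counts of called members were 14, 15 and 16 at the successive time points, 1 for the Year 2 interaction, 11 in control rats over time and 10 in treated rats over time.

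With CPM in place of TPM, the share of *Itgal* was 70.42, 69.67 and 64.26% in control and 38.96, 39.92 and 27.49% in treated rats. That of *Itgam* was 15.94, 15.23 and 19.04% and 37.77, 38.62 and 50.12%. For *Itgax* it was 13.65, 15.09 and 16.70% and 23.27, 21.47 and 22.39%. The direction of each difference between control and treated rats was kept, but the order of *Itgal* and *Itgam* within treated rats was not kept in every rat.

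Signs changed as follows, all as log2 fold changes and all for genes not called. DESeq2 gave 0.001 for *Itga3* at Year 0.5, and the replicate block 0.017 for *Itgb4* at Year 0.5. Upper quartile scaling gave -0.007 for *Vcam1* at Year 0.5 and -0.008 for *Itga5* at Year 1. Library size alone gave -0.059 for *Itga6* and -0.071 for *Vcam1* at Year 0.5, -0.043 for *Itgae* and -0.104 for *Itga5* at Year 1, and -0.105 for *Itga6*, -0.043 for *Itgb4* and -0.103 for *Itgb1* at Year 2. On log2(TPM + 1) and log2(TPM + 0.1), limma gave -0.097 and -0.100 for *Itga6* and -0.109 and -0.111 for *Vcam1* at Year 0.5. At Year 1 it gave -0.087 and -0.088 for *Itgal*, -0.043 and -0.045 for *Itga4*, -0.121 and -0.138 for *Itgae*, -0.204 and -0.207 for *Itga5*, and -0.049 and -0.050 for *Vcam1*. At Year 2 it gave -0.133 and -0.136 for *Itga6*, -0.076 and -0.081 for *Itgb4*, and -0.147 under both for *Itgb1*. Leaving out 1 rat moved *Itgb7* between -0.196 and 0.012, *Itga3* between -0.016 and 0.013, *Itgb4* between -0.167 and 0.217 and *Vcam1* between -0.018 and 0.106 at Year 0.5. At Year 1 it moved *Itgae* between -0.008 and 0.173, *Itga3* between -0.177 and 0.029, *Itga5* between -0.054 and 0.107 and *Icam1* between -0.088 and 0.098. At Year 2 it moved *Itgal* between -0.216 and 0.005, *Itgae* between -0.146 and 0.202, *Itga6* between -0.057 and 0.170, *Itga11* between -0.210 and 0.160 and *Itga9* between -0.119 and 0.074. The cause of these changes was not tested.

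With 3 rats a group and 13297643 counts or more per library, estimates for genes of a few CPM such as *Sele* and *Itga2* are imprecise. Their calls moved with single rats, as did that of *Itga11* at Year 0.5 but not at Year 1. Calls of genes at higher levels were lost too, such as those of *Itga5* and *Icam1* at Year 0.5 and of *Itga1* at Year 2. *Itgb8*, a low-level gene in control rats, kept its call at each time point whichever rat was left out.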
